A study of Mus musculus with 13 samples.

Results

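Transcripts of 10 genes of the matrix metalloproteinase system were followed in mouse glomeruli after an antibody attack on podocytes. The set was named by symbol and held 6 metalloproteinases (*Mmp2*, *Mmp11*, *Mmp14*, *Mmp15*, *Mmp17* and *Mmp19*) and 4 inhibitors (*Timp1*, *Timp2*, *Timp3* and *Reck*). All 10 were among the 35967 gene symbols of the table, and 9 of the 10 passed the filter on low values. Wild-type Balb/c mice each received 2.0 mg of rabbit IgG into the peritoneum. The methods state that only males were used in this model. The control group (n = 5) was given preimmune IgG, and the other groups were given IgG against THSD7A, a podocyte membrane protein and target antigen of human membranous nephropathy (MN), and were killed at day 1 (n = 4) or day 5 (n = 4). Control mice killed at day 1 and at day 5 were merged into 1 group, and the labels give neither the day of a given control mouse nor an age. The methods name adult males for inducing this model in knockout mice and littermates. In this passive model the anti-THSD7A IgG is deposited along the glomerular filter, where the paper found it together with THSD7A. Every group, controls included, received rabbit protein, but the paper detected no rabbit IgG in glomeruli after control IgG.

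Matrix metalloproteinases are zinc enzymes that cut collagens, laminins and other matrix proteins, and some also release proteins from cell surfaces. They are made as inactive precursors, are switched on by other proteases, and are held in check by the TIMPs, which block the active site. TIMP2 is also an adaptor, since a complex of MT1-MMP (*Mmp14*) and TIMP2 at the cell surface activates pro-MMP2. In the glomerulus these enzymes are known for their part in turnover of the basement membrane and the mesangial matrix.

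The unit throughout is TPM, a gene's share of all transcripts in a library, corrected for transcript length. TPM of different genes can therefore be set side by side, but TPM carry no read depth, and their counting error is unknown. For comparisons, TPM were divided by a scaling factor per library (0.955 to 1.04), 0.5 was added and log2 was taken. A log2 difference on this scale understates the change of low genes. Differences were tested with limma over 14322 genes in 1 fit of all 13 libraries. A gene was called when its Benjamini-Hochberg adjusted p was under 0.05 and its log2 difference was above 0.5 in size, the thresholds of the study's methods. Podocyte, mesangial and glomerular endothelial markers were above 0 in every library, with summed podocyte markers between 6547 and 8863 TPM. Values are bulk levels, so a change in the share of a cell type and a change in RNA per cell cannot be told apart.

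Short stretches around the starts of the genes are shown as a description of sequence, and a link between letters and calls was not tested. RefSeq windows of 250 bases before and 50 after the start were given for 7 of the 10 genes, and *Mmp2*, *Mmp17* and *Mmp19* had none. Each window matched GRCm39 at 1 place letter for letter. They were searched on both strands for AP-1 letters (TGANTCA, and the variant TGAGTAA) and for the GC box GGGCGG, or CCGCCC on the other strand, which do not overlap each other here. The lines below print 30 bases, 5′ to 3′ on the strand of the gene, with the letters of the chosen match in capitals. The line of *Mmp14* also holds another GC box, at -19 to -14 from the start, left in lower case. The first line is the AP-1 variant of *Timp1*, and the others are the GC box nearest the start among those upstream of it.
Timp1, AP-1 variant, chrX:20736420-20736449, plus strand: cggtgggtggaTGAGTAAtgcgtccaggaa
Timp1, GC box, chrX:20736385-20736414, plus strand: ttatcctggggcCCGCCCctaggctttgac
Timp2, GC box, chr11:118246257-118246286, minus strand: ctggggagggctGGGCGGcgcggcgcggga
Timp3, GC box, chr10:86136249-86136278, plus strand: tccgggccggctCCGCCCtgtcgccccgcg
Reck, GC box, chr4:43875463-43875492, plus strand: tctgagcggccgGGGCGGggcttcagcgag
Mmp14, GC box, chr14:54669030-54669059, plus strand: gcattggggcggGGGCGGaggagaggctgt
Mmp11, GC box, chr10:75768338-75768367, minus strand: cggcgccggcggGGGCGGggcgaatgctat
Mmp15, GC box, chr8:96078806-96078835, plus strand: tcgggttaggtcCCGCCCccagcctccgcc

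All 7 windows held at least 1 GC box, which 35.7% of the 32851 windows of 300 bases hold. TGAGTAA was found in the window of *Timp1* alone, 27 to 33 bases after the RefSeq start, and 2.68% of all windows hold it. TGANTCA was in none of the 7, against 7.81% of all windows. At least 1 of the AP-1 patterns is held by 10.2% of all windows. The printed stretches of *Timp1*, *Timp2*, *Timp3* and *Mmp14* lie wholly inside annotated exons of transcripts that start further upstream, and those of *Reck*, *Mmp11* and *Mmp15* lie outside the exons of their genes. The 250 bases before the start were 54.4% G or C for *Timp1*, 68% for *Timp2* and 65.6% for *Timp3*, against a median of 52.4% over all windows. A match of letters is a description and not evidence of a bound site.

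Levels in control glomeruli spanned more than 3 orders of magnitude, and the inhibitors held both the top and nearly the bottom of the order. *Timp3*, a matrix-bound inhibitor that also blocks several ADAM and ADAMTS enzymes, was first at 1380 ± 101 TPM (SD, n = 5), above 99.55% of the tested genes. *Timp2* followed at 393 ± 22.2 TPM. The membrane-bound collagenase *Mmp14* (85.8 ± 12.1 TPM) and the gelatinase *Mmp2* (80.6 ± 12.5 TPM) came next, and their control values overlapped. *Reck*, a membrane-anchored inhibitor, stood at 31.7 ± 4.89 TPM.

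Among the less abundant genes, the GPI-anchored *Mmp17* (13.5 ± 2.29 TPM), the stromelysin *Mmp11* (10.7 ± 3.10 TPM) and the transmembrane *Mmp15* (10.2 ± 3.90 TPM) followed each other with overlapping values. The secreted inhibitor *Timp1* was at 1.69 ± 0.576 TPM and *Mmp19* at 0.812 ± 0.220 TPM, also with overlapping values. All other neighbours in this order did not overlap in the 5 control libraries. *Timp3* alone made up 76.3% to 79.7% of the summed TPM of *Timp1*, *Timp2* and *Timp3* in controls, 74.5% to 82.3% at day 1 and 73.5% to 79.8% at day 5. *Timp1* made up 0.0524% to 0.127% of that sum in controls and 0.116% to 0.314% at day 5.

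**Figure D1:**
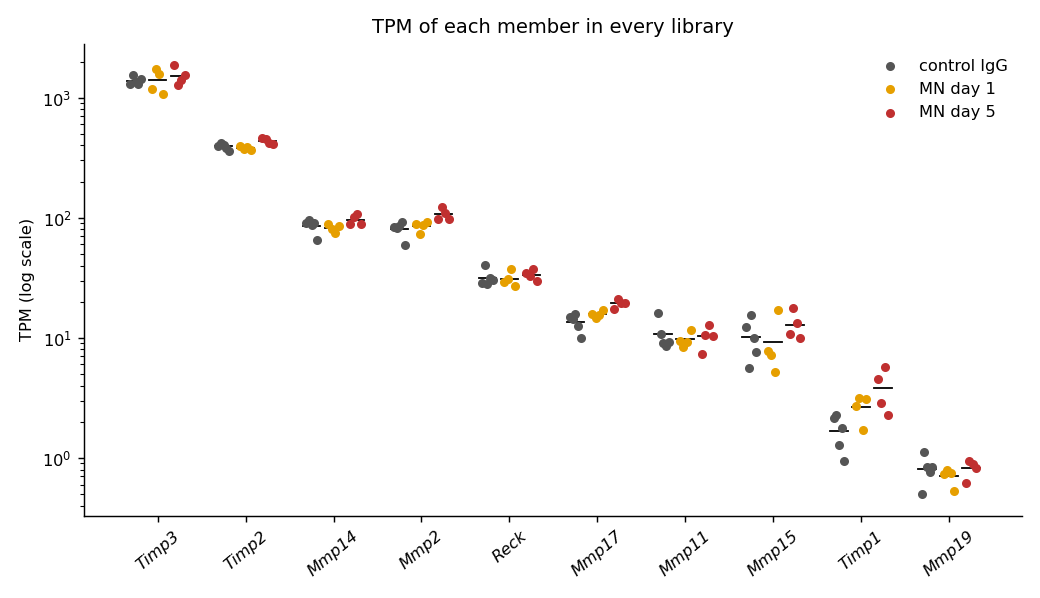
TPM (log axis) of the 10 genes in each library, ordered by the control mean. Points are single mice (5 control, 4 MN day 1, 4 MN day 5) and bars are group means. *Timp3* lies near 1380 TPM in controls and *Mmp19* near 0.812 TPM, and the day 5 points of *Mmp17* and *Mmp2* lie above all their control points.

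At day 5, 2 of the 9 tested members were called, *Mmp17* and *Timp1*, both higher than in controls, and none was called lower. Over all tested genes, 3.21% were called in this comparison, 2.42% higher and 0.789% lower. The members' log2 differences were above 0 for 8 of 9, with a median of 0.21, against 49.3% of all tested genes and a median of -0.0032. On deposited TPM, 2 of the 9 (*Mmp17* and *Mmp2*) did not overlap between the groups, against 10.8% of all tested genes. An adjusted p under 0.05 was reached by 3 of the 9, against 6.12% of all tested genes. The members were chosen with earlier results of these data known, so these shares are descriptions and not a test.

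*Mmp17*, also known as MT4-MMP, is a metalloproteinase tied to the cell surface by a GPI anchor (GRCm39, chr5:129661084-129688163, plus strand). Its TPM in control replicates 1 to 5 were 15.0, 14.3, 15.7, 12.5 and 9.98. At day 1 the 4 mice had 15.8, 14.5, 15.4 and 17.0 TPM, and at day 5 they had 17.4, 21.0, 19.6 and 19.4 TPM. Every day 5 mouse stood above every control and every day 1 mouse, while day 1 overlapped with control. The day 5 level was 1.47-fold that of controls (log2 difference 0.55, SE 0.11, limma adjusted p = 0.00782). At day 1 the log2 difference was 0.27 (SE 0.11, adjusted p = 0.349), and the day 5 mice differed from the day 1 mice by 0.29 (SE 0.11, adjusted p = 0.242). The log2 difference at day 5 lay between 0.47 and 0.61 in 24 alternatives, with an adjusted p under 0.05 in 24 of 24 and a call in 22 of 24.

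*Timp1*, a secreted inhibitor that many injured tissues induce, had the largest log2 difference of the members at day 5 from a low level. The gene lies at chrX:20736316-20740976 on the plus strand, inside *Syn1* on the other strand, with 0 shared exon bases. Control replicates 1 to 5 had 2.15, 2.29, 1.27, 1.78 and 0.936 TPM. The day 1 mice had 2.69, 3.18, 1.72 and 3.07 TPM, and the day 5 mice had 4.52, 2.85, 5.74 and 2.28 TPM. Deposited TPM of day 5 and control mice met at 2.28 and 2.29, and the groups did not overlap after scaling. The day 5 mice were spread widely, with an SD of 1.58 TPM around a mean of 3.85. The day 5 level was 1.99-fold that of controls (log2 difference 0.99, SE 0.27, limma adjusted p = 0.0475), and the day 1 level was 1.5-fold (0.59, SE 0.27, adjusted p = 0.396).

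The call of *Timp1* stood close to the threshold and was lost in 16 of 23 alternatives, although its log2 difference stayed between 0.81 and 1.19. Of the 13 fits that each left out 1 library, it was called in 3, those without control replicate 2, MN day 1 replicate 3 or MN day 5 replicate 4. Its adjusted p ranged from 0.0261 to 0.153 over these alternatives.

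*Mmp2*, the gelatinase that cuts denatured collagen and type IV collagen of basement membranes, passed the p threshold but not the threshold on size. Its locus is chr8:93553902-93580049 on the plus strand, where 860 of its 3533 exon bases are shared with the antisense gene *Gm45472*. Control mice had 84.0, 82.0, 85.6, 92.2 and 59.3 TPM, day 1 mice had 88.4, 73.7, 87.7 and 92.2 TPM, and day 5 mice had 98.1, 123.8, 108.8 and 98.15 TPM. All 4 day 5 values lay above all control and day 1 values, the nearest being 98.1 TPM at day 5 and 92.2 TPM in the other groups. The day 5 level was 1.37-fold that of controls (log2 difference 0.45, SE 0.11, limma adjusted p = 0.028). The adjusted p was under 0.05 in 17 of 24 alternatives, with a range of 0.0234 to 0.0991. It was above 0.05 without MN day 5 replicate 1, 2 or 3. It was also above 0.05 with TPM as deposited, no filter on low values, the replicate block or only the compared groups. Whether reads were assigned by strand is not stated in the sources used here.

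**Figure D2:**
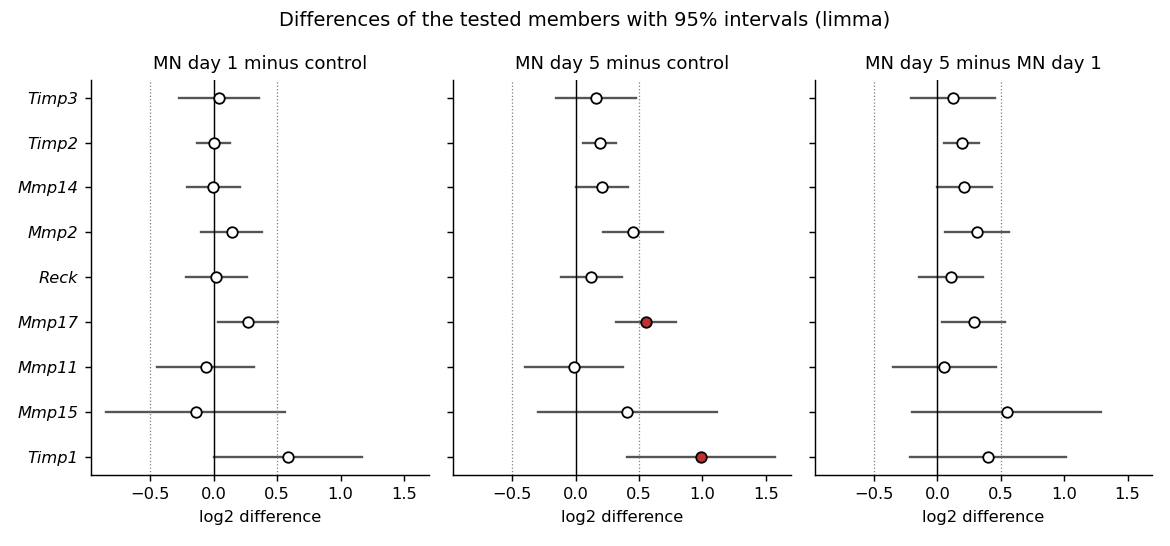
Log2 differences of the 9 tested members with 95% intervals from limma for the 3 comparisons, with filled points for calls and dotted lines at the size threshold of 0.5. At day 5 the intervals of *Mmp17*, *Timp1*, *Mmp2* and *Timp2* lie above 0, and in the comparison of day 5 with day 1 all 9 points lie above 0.

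The partners of *Mmp2* in its activation complex had smaller log2 differences and were not called. *Mmp14*, which encodes MT1-MMP, had 90.35, 96.5, 86.5, 90.5 and 65.2 TPM in control mice and 88.0, 101.5, 107.3 and 88.2 TPM at day 5. These groups overlapped (log2 difference 0.21, SE 0.096, limma adjusted p = 0.25). *Timp2* had 361 to 418 TPM in control mice, 366 to 396 TPM at day 1 and 409 to 465 TPM at day 5. Its log2 difference at day 5 was 0.19 with the smallest SE of the members (0.061) and an adjusted p of 0.0875 by limma. Day 5 and control TPM of *Timp2* overlapped as deposited and were separate after scaling. *Timp2* shares 332 of its 4463 exon bases with the protein-coding *Cep295nl* on the same strand. *Mmp14* shares 219 of its 6166 exon bases with *Gm62879* on the other strand.

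Per library, the ratio of *Mmp2* to *Timp2* TPM was 0.205 ± 0.028 in controls, 0.225 ± 0.022 at day 1 and 0.245 ± 0.026 at day 5 (SD). The ratio of *Mmp14* to *Timp2* was 0.218 ± 0.023, 0.217 ± 0.018 and 0.221 ± 0.027 in the same order. *Mmp17* relative to *Mmp14* was 0.138 to 0.181 in controls, 0.178 to 0.206 at day 1 and 0.183 to 0.219 at day 5. These ratios are given as descriptions, and the ranges of the first and second overlapped between all groups, while that of *Mmp17* to *Mmp14* did not overlap between control and day 5.

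*Timp3* and *Reck*, inhibitors bound to matrix and membrane, were not called in any comparison. *Timp3* had 1296, 1535, 1338, 1307 and 1426 TPM in control mice, 1192, 1743, 1578 and 1078 TPM at day 1, and 1855, 1267, 1398 and 1553 TPM at day 5. The groups overlapped throughout, and the SD was 314 TPM at day 1 and 253 TPM at day 5 against 101 TPM in controls. The log2 difference of *Timp3* at day 5 was 0.16 with a 95% interval of -0.15 to 0.47. *Timp3* lies within *Syn3* on the other strand, and 1734 of its 8146 exon bases are shared with it. *Reck* ranged from 27.9 to 40.04 TPM in controls, 27.0 to 37.3 TPM at day 1 and 29.5 to 37.6 TPM at day 5, with a log2 difference of 0.12 at day 5 (95% interval -0.12 to 0.36).

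Of the remaining enzymes, *Mmp15* varied most between mice. Its TPM ran from 5.62 to 15.5 in controls, 5.15 to 17.0 at day 1 and 10.1 to 17.6 at day 5, and the 95% interval of its log2 difference at day 5 ran from -0.30 to 1.11. The coefficient of variation of *Mmp15* in control mice was 38.2%, against a median of 12.1% over all tested genes. *Mmp11* had a log2 difference of -0.01 at day 5 (95% interval -0.40 to 0.37). Control replicate 1 had 16.1 TPM of *Mmp11*, and the other control mice had 8.59 to 10.7 TPM. *Mmp19* stayed between 0.497 and 1.11 TPM in all 13 libraries and was not tested for lack of signal. On the other strand, *Tmem198b* shares 1084 of the 3541 exon bases of *Mmp19*, and *Chchd10* shares 155 of the 3523 of *Mmp11*.

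At day 1 none of the 9 tested members was called, where 0.0908% of all tested genes were called (13 genes). Without control replicate 5, the count over all genes was 218 of 14257, and still 0 members were called. An unadjusted p under 0.05 in limma was reached by 2 of the 9, *Timp1* and *Mmp17*, against 12.6% of all tested genes. The log2 differences of the 9 members had a median of 0.02, and 6 were above 0, against 49.2% of all tested genes. The interval of *Timp2* at day 1 was -0.13 to 0.13 and that of *Mmp14* was -0.21 to 0.20, whereas that of *Mmp15* reached from -0.85 to 0.56. TPM of 0 of the 9 members were separate from controls at day 1, against 4.22% of all tested genes.

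Between day 5 and day 1, 0 of the 9 members were called in limma, against 1.81% of all tested genes. All 9 log2 differences were above 0, with a median of 0.21, against 51.3% of all tested genes and a median of 0.0049. Mean tubular marker levels were 5.09 to 5.81 at day 1 and 4.51 to 4.76 at day 5 on the log2 scale. With that level as a covariate, 3 of the 9 differences were below 0 (*Mmp11*, *Timp3* and *Reck*), and the values were 0.10 for *Mmp17*, 0.17 for *Mmp2* and 0.063 for *Mmp14*. The tubular levels did not overlap between the days, so this fit can hardly tell the day from the tubular level. Calls over all tested genes went from 259 to 110 with the covariate. An unadjusted p under 0.05 was reached by 3 members (*Mmp2*, *Mmp17* and *Timp2*), against 15.5% of all tested genes. Those 3 genes were also the members whose TPM did not overlap between the days, against 11% of all tested genes. *Timp2* at day 5 exceeded day 1 by 0.19 (SE 0.064, limma adjusted p = 0.16), and *Mmp2* exceeded it by 0.31 (SE 0.12, adjusted p = 0.208). The day 1 mice entered this comparison and the comparison of day 1 with controls, so the values of these comparisons are not independent.

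Control replicate 5 was low in several members, though the search below for libraries far from their group flagged it in none. It held the lowest control value for 5 of the 10 (*Mmp2*, *Mmp14*, *Mmp17*, *Timp1* and *Timp2*), and for 36.2% of all tested genes. Its mean tubular marker level was 5.38 on the log2 scale, against 3.998 to 4.87 in the other control mice, 5.09 to 5.81 at day 1 and 4.51 to 4.76 at day 5. Without this library 0 members were called at day 5. The log2 difference of *Mmp17* was then 0.47 (limma adjusted p = 0.00916), and that of *Timp1* was 0.86 (adjusted p = 0.10). With the tubular marker level as a covariate, the log2 difference at day 5 was 0.55 for *Mmp17*, 0.99 for *Timp1* and 0.45 for *Mmp2*, each with an adjusted p under 0.05. The same covariate moved the day 1 values further, from 0.27 to 0.45 for *Mmp17*, from 0.14 to 0.28 for *Mmp2* and from 0.59 to 0.85 for *Timp1*, with 0 members called (limma adjusted p = 0.342, 0.639 and 0.56). Over all tested genes, 0 were called at day 1 with the covariate and 13 without it.

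**Figure D3:**
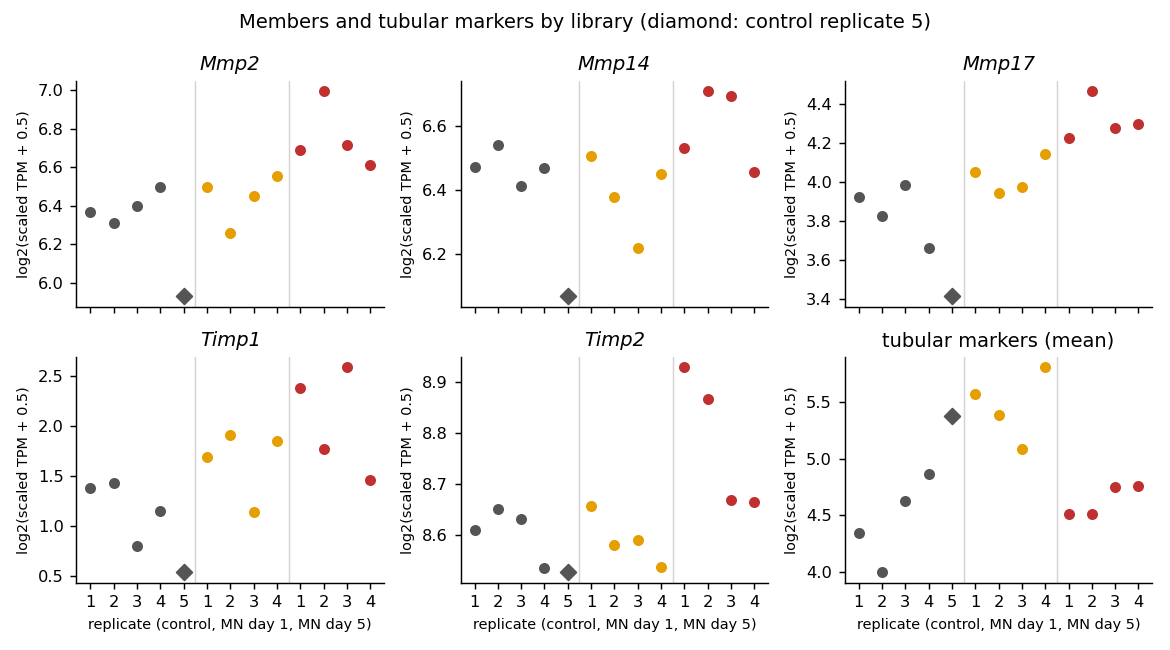
Levels of 5 members on the scale log2(scaled TPM + 0.5) in each of the 13 libraries, beside the mean of 12 tubular marker genes on the same scale. Colours mark control, MN day 1 and MN day 5 in that order, and the diamond is control replicate 5, which is lowest of the controls in all 5 members and highest of the controls in tubular markers (5.38).

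**Figure D4:**
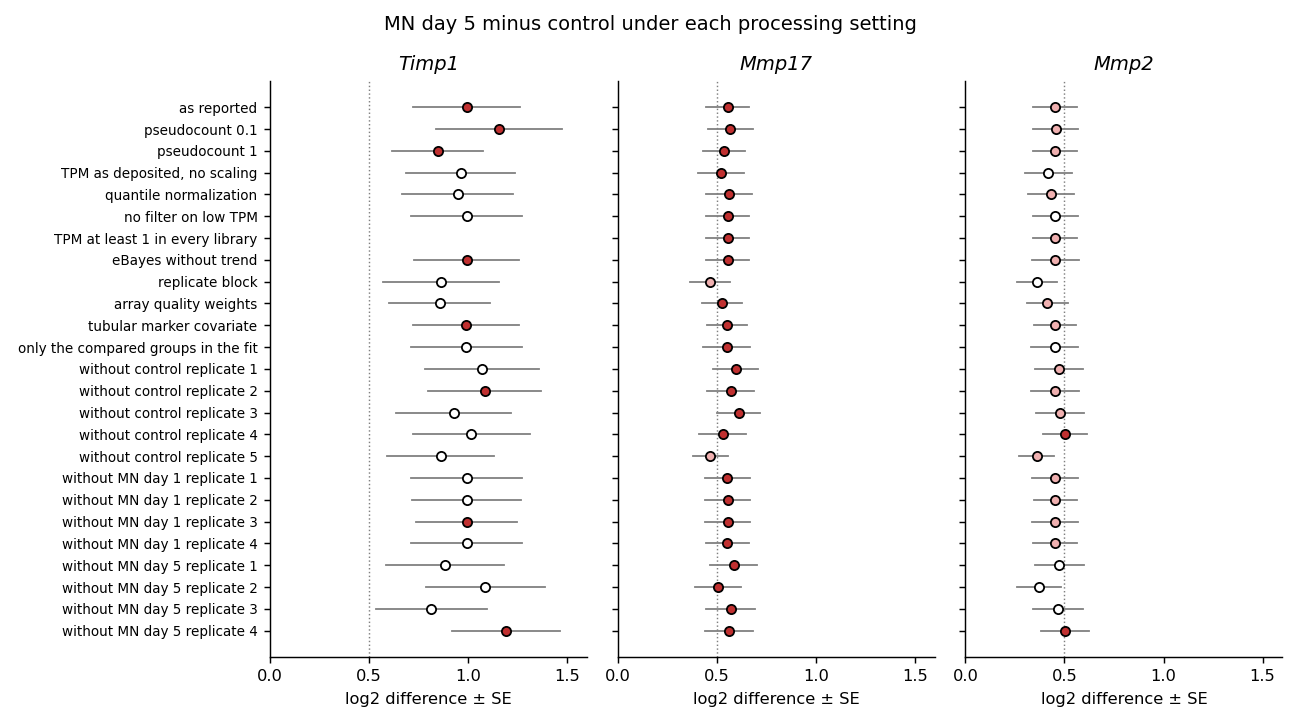
Log2 difference ± SE between day 5 and control for *Timp1*, *Mmp17* and *Mmp2* under each processing setting. Dark points are calls, pale points have an adjusted p under 0.05 with a difference under 0.5, and open points have an adjusted p above 0.05. *Timp1* was called in 7 of 23 alternatives and *Mmp17* in 22 of 24, and no value lies below 0.

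Markers of cell types were read in the same libraries, and none of these lists was tested as a cause. At day 5, 6 of 6 glomerular endothelial markers had a log2 difference above 0 (median 0.23), against 49.3% of all tested genes. The same held for 4 of 5 mesangial markers (median 0.04) and 3 of 7 podocyte markers (median -0.18). In each of these 3 lists 0 markers were called. Leukocyte markers summed to 26.9 to 47.3 TPM in controls and 26.2 to 50.5 TPM at day 5, and 0 of 6 tested were called at day 5. Summed vascular smooth muscle markers ran from 242 to 538 TPM in controls, 453 to 592 TPM at day 1 and 526 to 797 TPM at day 5, with 1 of 4 called at day 5 (*Tagln*). Parietal epithelial markers summed to 5.99 to 8.19 TPM in controls and 11.9 to 17.5 TPM at day 5, with 1 of 3 called (*Cldn1*). *Cldn1* held most of that sum, while *Pax2* and *Cdh6* reached at most 1.43 and 1.89 TPM in any library. Fibroblast markers summed to 474 to 721 TPM in controls and 619 to 751 TPM at day 5, with 0 of 4 tested called. *Pi16* held most of that sum, and *Lum* and *Dpt*, under the filter, were at 0 in 5 of 13 libraries each. Proliferation markers rose at day 5 in 4 of 4, from 11.2 to 21.1 TPM in controls to 76.7 to 118 TPM. The part of these cells in the levels of *Mmp17*, *Timp1* and *Mmp2* was not tested.

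Members varied together to different degrees over the 13 libraries, which share their group structure and control replicate 5. Pearson's r of log2 levels was 0.89 for *Mmp2* and *Mmp17*, 0.81 for *Mmp2* and *Mmp14* and 0.73 for *Mmp14* and *Mmp17*. The r of *Timp3* with these enzymes was -0.12 for *Mmp2*, -0.20 for *Mmp14* and 0.01 for *Mmp17*. The tested genes whose pattern was most like that of *Mmp17* were *Mtap*, *Hspg2*, *Dynlt1f*, *Cald1* and *Cit*, with r from 0.91 to 0.93. *Hspg2* encodes perlecan, a heparan sulfate proteoglycan of basement membranes, *Cald1* the actin-binding protein caldesmon, and *Cit* citron kinase, which acts in cytokinesis. Of these 5, only *Cit* was called at day 5 (log2 difference 0.75, limma adjusted p = 0.00814). The genes most like *Timp1* were *Ano6*, *Swap70*, *Bak1*, *Slc7a1* and *Abhd2*, with r from 0.89 to 0.92, and none of the 5 was called. These correlations are descriptions with n = 13 libraries.

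Beyond the 10 members, 43 other genes of the metalloproteinase system were read, and 25 passed the filter. At day 5, 4 of the 25 were called, all higher, against 3.21% of all tested genes called and 2.42% called higher. Of the 25 log2 differences 21 were above 0, with a median of 0.28, against 49.3% of all tested genes. The lists were chosen with earlier results of these data known, so these shares are descriptions and not a test. They include *Adam10*, *Adam12* and *Adam17*, whose increase the paper itself reports from its protein and RNA data together. In the RNA read here, the day 5 log2 difference was 0.32 for *Adam10* (limma adjusted p = 0.00128), under the size threshold. It was 0.14 for *Adam17* (adjusted p = 0.237), and neither of these 2 was called. The called genes were *Adam12*, *Adamts1*, *Cd44* and *Thbs2*. At day 1 none of the 25 was called by limma, 2 had an unadjusted p under 0.05, and the median was 0.05. Between day 5 and day 1, 2 of the 25 were called, *Adam12* and *Adamts1*, both higher, against 1.41% of all tested genes called higher. That count was 1 without MN day 1 replicate 1 or 2, or without MN day 5 replicate 2, 3 or 4. It was 1 with no filter on low values or with the replicate block. With the tubular marker level as a covariate it was 0, in a fit where that level did not overlap between the days.

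The ADAM and ADAMTS enzymes that TIMP3 is known to inhibit gave 2 calls among 5 tested, in a list chosen with earlier results known. *Adam12* had 9.87 ± 1.41 TPM in controls (n = 5), 11.3 ± 2.28 TPM at day 1 (n = 4) and 18.5 ± 3.26 TPM at day 5 (n = 4). Its log2 difference at day 5 was 0.90 (SE 0.14, limma adjusted p = 0.00166). *Adamts1*, a secreted protease that cuts proteoglycans such as versican and aggrecan, had 165 ± 19.0 TPM in controls, 164 ± 25.2 TPM at day 1 and 257 ± 4.26 TPM at day 5. The 4 day 5 mice held 252 to 262 TPM and the 5 controls 136 to 189 TPM, without overlap (log2 difference 0.68, SE 0.095, adjusted p = 8.1e-04). *Adamts5*, the aggrecanase next in level, had 154 ± 22.0 TPM in controls and 187 ± 6.05 TPM at day 5, and its log2 difference of 0.32 was under the size threshold (adjusted p = 0.0408).

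Binding and clearance partners gave the other 2 calls, among 7 tested. *Cd44*, a hyaluronan receptor that docks metalloproteinases at the cell surface and a known marker of activated parietal epithelial cells, had 3.17 ± 0.571 TPM in controls, 3.71 ± 0.429 TPM at day 1 and 6.19 ± 1.77 TPM at day 5 (log2 difference at day 5 0.88, SE 0.19, limma adjusted p = 0.0135). *Thbs2*, a matricellular protein that takes MMP2 into cells for degradation through LRP1, had 19.2 ± 1.95 TPM in controls, 24.5 ± 2.56 TPM at day 1 and 30.8 ± 4.14 TPM at day 5 (log2 difference 0.70, SE 0.098, adjusted p = 8.4e-04). *Thbs2* was separate from controls at day 1 too, with a log2 difference of 0.39 that was not called (adjusted p = 0.178). The abundant partners *Bsg*, an inducer of metalloproteinases, and the endocytic receptor *Lrp1* had log2 differences of 0.13 and 0.15 at day 5, and neither was called.

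Plasminogen activators and proprotein convertases, which take part in switching on metalloproteinase precursors, gave no call among 9 tested genes. *Plat*, the tissue plasminogen activator, was the most abundant gene of the system at 4654 ± 551 TPM in controls and 4366 ± 1206 TPM at day 5. Its inhibitor *Serpine2*, a protease nexin, had 664 ± 67.6 TPM in controls and 865 ± 60.6 TPM at day 5 without overlap (log2 difference 0.42, SE 0.088, limma adjusted p = 0.0113), under the size threshold. *Furin*, a convertase that cuts MT1-MMP precursors, had a log2 difference of 0.14 at day 5 and *Pcsk6* of 0.39, neither called (adjusted p = 0.447 and 0.0881 in limma).

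Other metalloproteinases and *Timp4* were mostly near 0. Of these 18 genes, 14 were under the filter, 3 were listed at 0 in every library, and the highest TPM among the 14 was 2.08, for *Mmp9*. *Mmp23*, a membrane-tethered enzyme, stood above every metalloproteinase of the named set at 183 ± 20.6 TPM in controls and 165 ± 14.2 TPM at day 5. *Mmp28* had 37.0 ± 2.996 TPM in controls and 30.3 ± 5.31 TPM at day 5. None of the 4 tested genes of this list was called in any comparison, and at day 5 the log2 difference was -0.12 for *Mmp23*, -0.26 for *Mmp28*, 0.38 for *Mmp3* and 0.18 for *Mmp16*.

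**Figure D5:**
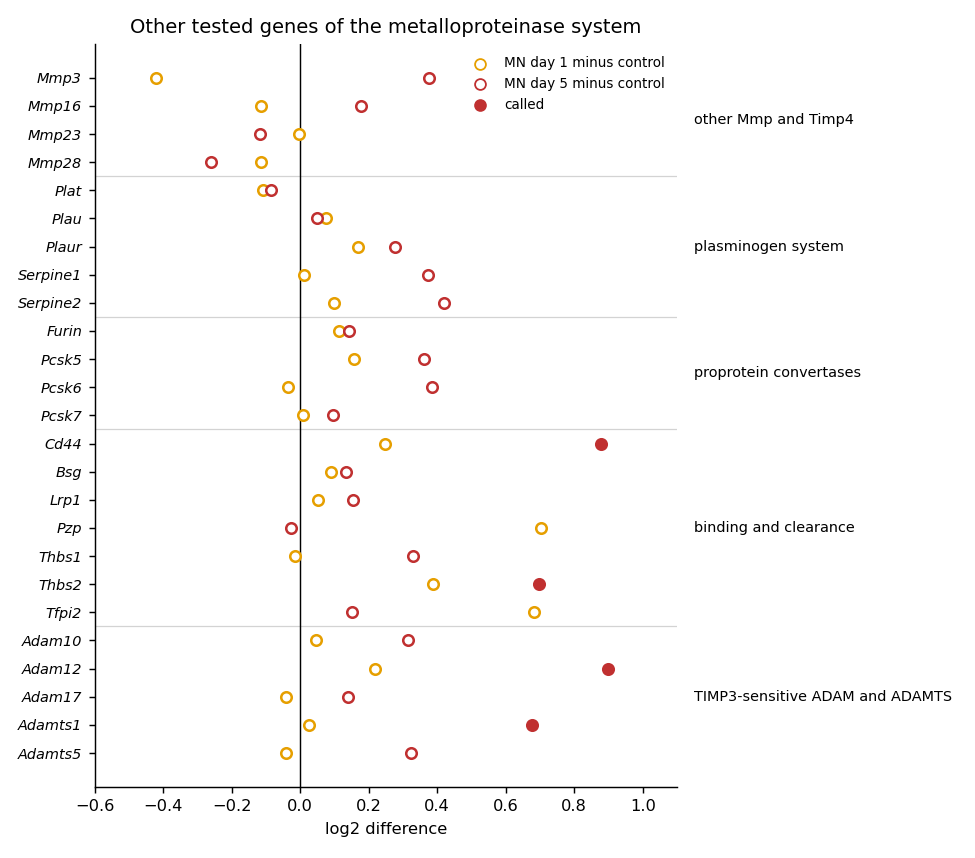
Log2 differences of the 25 other tested genes against control at day 1 (yellow) and day 5 (red), grouped by list, with filled points for calls. The calls at day 5 are *Cd44*, *Thbs2*, *Adam12* and *Adamts1*, and no day 1 point is filled.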

How the data were processed

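RNA of isolated glomeruli was sequenced, 1 library per mouse. Per the labels and the methods, the authors trimmed reads (FastQC 0.11.9, Trimmomatic 0.39) and quantified them with kallisto 0.46.2 against GRCm39. They deposited TPM per gene symbol. How transcripts were summed to a symbol is not given in the sources used here. Depth was unknown, so intervals reflect the spread between mice.

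The 10 members and the other lists were chosen with earlier results of these data known. Scaling factors per library were medians of ratios over 15772 genes, 0.5 was added to scaled TPM, and log2 was taken. Genes reaching 1 TPM in 4 or more libraries entered the limma fit (version 3.58.1, R 4.3.3, eBayes with trend), and p-values were adjusted by Benjamini-Hochberg within each comparison. The code was tested on simulated data. Named genes were all members, every gene of the other lists called in any comparison, the 2 most abundant genes of each list, and the 5 genes most correlated with each called member. The other genes named were chosen after their values were seen. Coordinates come from GENCODE on GRCm39, and promoter letters from RefSeq (GRCm38.p6 windows found again in GRCm39). Replicate numbers label different mice and were used as a block in an alternative only. Other alternatives changed the pseudocount (0.1, 1), scaling, filter, variance model, weights, covariate and libraries.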

Additional observations from a re-analysis of the deposited data

Results flagged for a closer look

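Libraries far from the rest of their group were sought in 69 groups over 23 genes. Chance gives about 1 in 20, and 3 were found. *Mmp11* in control replicate 1 was at 16.1 TPM, against 8.59 to 10.7 TPM in the other controls, and *Mmp11* was not called in any comparison. *Pcsk6* in MN day 5 replicate 4 was at 80.4 TPM, against 91.3 to 92.7 TPM in the other day 5 mice. *Lrp1* in MN day 5 replicate 1 was at 129.9 TPM, against 152.5 to 157.1 TPM. The effect at day 5 exceeded that at day 1 by 0.68 on the log2 scale for *Adam12* (limma adjusted p = 0.0289) and by 0.65 for *Adamts1* (adjusted p = 0.0025), tested as the difference between the days, in which the shared controls cancel.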

How the results depend on the processing

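Counts of calls changed with several settings. At day 5, 2 members were called as reported, 1 with TPM as deposited, quantile normalization, no filter, a floor of 1 TPM in all libraries (*Timp1* was not in that fit), array weights or only the compared groups, and 0 with the replicate block. Leaving out 1 library gave 0 to 3. Deviations of same-numbered libraries correlated weakly (r -0.056 to 0.091 over 12 pairs, and 2 of 12 libraries correlated best with their own number). The labels state no pairing, and such correlations cannot decide whether the numbers pair the mice. Under the block *Mmp17* was 0.47 (adjusted p = 0.0373) and *Timp1* 0.86 (0.153), and calls over all genes went from 460 to 348 at day 5, from 13 to 149 at day 1 and from 259 to 331 between the days. Replicate 5 exists only among controls, so the block fits control replicate 5 by itself and in effect leaves it out. The fit without that library gave the same 0.47 and 0.86, with 403, 218 and 437 calls over all genes in the same order. Changes under the block thus mix the loss of that library with the blocking of the others, and the part of each was not tested. Of the other genes, 4 called at day 5 became 8 with the adjusted p alone and stayed at 4 without any 1 library, and the 2 called between the days became 1 with no filter or the replicate block, 0 with the tubular covariate and 1 to 2 without 1 library.

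Direction changed in 36 of 645 single-gene values, none of them called. At day 1 these were *Mmp11* (0.0037) and *Mmp14* (0.14) with the tubular covariate, *Timp2* (-0.046 without scaling, -0.035 with quantile normalization, -0.016 with the block, -0.0036 with weights, -0.00027 with only the compared groups), *Timp3* (-0.0068 without scaling, -0.0097 with quantile normalization) and *Reck* (-0.025 without scaling). Between the days the tubular covariate gave -0.016 for *Mmp11*, -0.030 for *Timp3* and -0.091 for *Reck*. Without 1 library, day 1 values ran from -0.15 to 0.084 for *Mmp11*, -0.085 to 0.052 for *Mmp14*, -0.47 to 0.086 for *Mmp15*, -0.022 to 0.018 for *Timp2*, -0.083 to 0.15 for *Timp3* and -0.061 to 0.098 for *Reck*. *Mmp11* ran from -0.10 to 0.14 at day 5 and -0.037 to 0.18 between the days. The causes were not tested. Depth is unknown, so the counting error of low genes such as *Timp1* and *Mmp19* is unknown too.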
